A study of Mus musculus with 16 samples.

Results

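The genes described here are the AP-1 and immediate early genes *Fos*, *Fosb*, *Fosl2*, *Jun*, *Junb*, *Jund*, *Egr1*, *Egr2*, *Ier2* and *Atf3*, taken by name from the array's annotation. All 10 had a probe, 11 probes in all, among 20284 gene symbols on the array. Gene expression was measured on 16 single-colour Agilent arrays, a pair for each of 8 groups. Of these, 4 groups were sorted from mouse bone marrow: monocyte-dendritic cell progenitors (MDPs) and common monocyte progenitors (cMoPs), a stage restricted to monocytes, from animals that were wild type (WT) or lacked Irf8 (Irf8KO). The other 4 were 32Dcl.3, an interleukin-3-dependent mouse myeloid progenitor line grown in WEHI3B conditioned medium and studied 3 days after retroviral transduction. Each of the 4 groups of the line carried a pair of vectors, so the controls were transduced too. These were empty MSCV-IRES-hCD8t with empty MSCV-IRES-puro, the C/EBPalpha form of the puro vector with the empty hCD8t vector, the IRF8 form of the hCD8t vector with the empty puro vector, or both factor-carrying vectors. Expression from a retroviral promoter in a cell line is a model of forced expression, and the labels give no age, sex or number of the donor animals. The study asked what IRF8, a transcription factor of monocyte and dendritic cell development, and C/EBPalpha, one of granulocyte and monocyte development, do in myeloid progenitors.

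AP-1 is a dimer of basic leucine zipper proteins, in which a Jun protein pairs with another Jun protein, a Fos protein or an ATF protein and binds a short DNA element. *Fos*, *Fosb*, *Jun*, *Junb*, *Egr1*, *Egr2*, *Ier2* and *Atf3* are classical immediate early genes, switched on within minutes by growth factors, cytokines or stress without new protein synthesis, whereas *Jund* and *Fosl2* (Fra-2) respond less sharply. In myeloid cells Jun and Fos proteins take part in monocyte and macrophage differentiation, and Egr1 and Egr2 are zinc finger factors of the macrophage programme.

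Levels below are log2 signals relative to the 75th percentile of the array, so a level of 0 equals that percentile, and a change is a difference of such levels between groups. The MDP, cMoP and 32Dcl.3 arrays lay on a slide each, so cell type and slide cannot be told apart and every test was made within a slide. Within slides, genotype or vector followed the slide rows or columns, and position and group cannot be told apart either. The MDP arrays were dim, with a 75th percentile of processed signal between 79.16 and 94.95, against 518.1 to 631.7 for cMoPs and 167.6 to 534.5 for the line. They also had the smallest share of probes well above background, 37.3 to 38.7%, against 43.1 to 44.8% for cMoPs and 49.9 to 56.2% for the line. Replicate arrays correlated between 0.9951 and 0.998. Their differences had an SD of 0.284 and 0.301 in MDPs but 0.22 and 0.203 in cMoPs, while the test shares 1 spread over both. The *Irf8* probe stayed well above background in Irf8KO cells, at 7.22 and 7.21 against 7.80 and 7.73 in MDPs and at 5.66 and 5.69 against 7.17 and 7.18 in cMoPs. Where it lies relative to the deleted part was not examined, so it does not check the genotype. Neither the *Irf8* nor the *Cebpa* probe was well above background on any 32Dcl.3 array, those of the transduced groups included, so these probes do not check the vectors. Of 6 markers of MDPs and cMoPs with a probe all were well above background in the sorted cells, but *Kit* and *Cx3cr1* were not on any 32Dcl.3 array. *Xist* was well above background on MDP arrays only and *Ddx3y* and *Eif2s3y* on cMoP arrays only, so these sex-linked transcripts coincide with stage and slide.

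Across the 16 arrays the 10 genes fell into clear patterns of presence. *Fos* and *Jun* were well above background on all 8 progenitor arrays and on none of the 8 arrays of the line. *Fosl2*, *Jund* and *Ier2* were well above background on all 16 arrays, and *Fosb* and *Junb* on the 4 cMoP arrays and the 8 arrays of the line but on no MDP array. *Egr1* was well above background on the 2 empty-vector arrays only. *Egr2* was so on these 2 arrays and on 1 of 2 Irf8KO MDP arrays, and *Atf3* on none of 16. In the progenitors 7 of the 10 genes were bright enough to be tested, among 11963 genes, and in the line another set of 7 among 13337. The faintest probe well above background lay between -3.155 and -2.796 on MDP arrays and between -3.38 and -3.253 on cMoP arrays. On 32Dcl.3 arrays it lay between -5.349 and -3.889. That faintest level was thus highest on MDP arrays, though close to that on cMoP arrays, and lowest on arrays of the line.

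**Figure D1:**
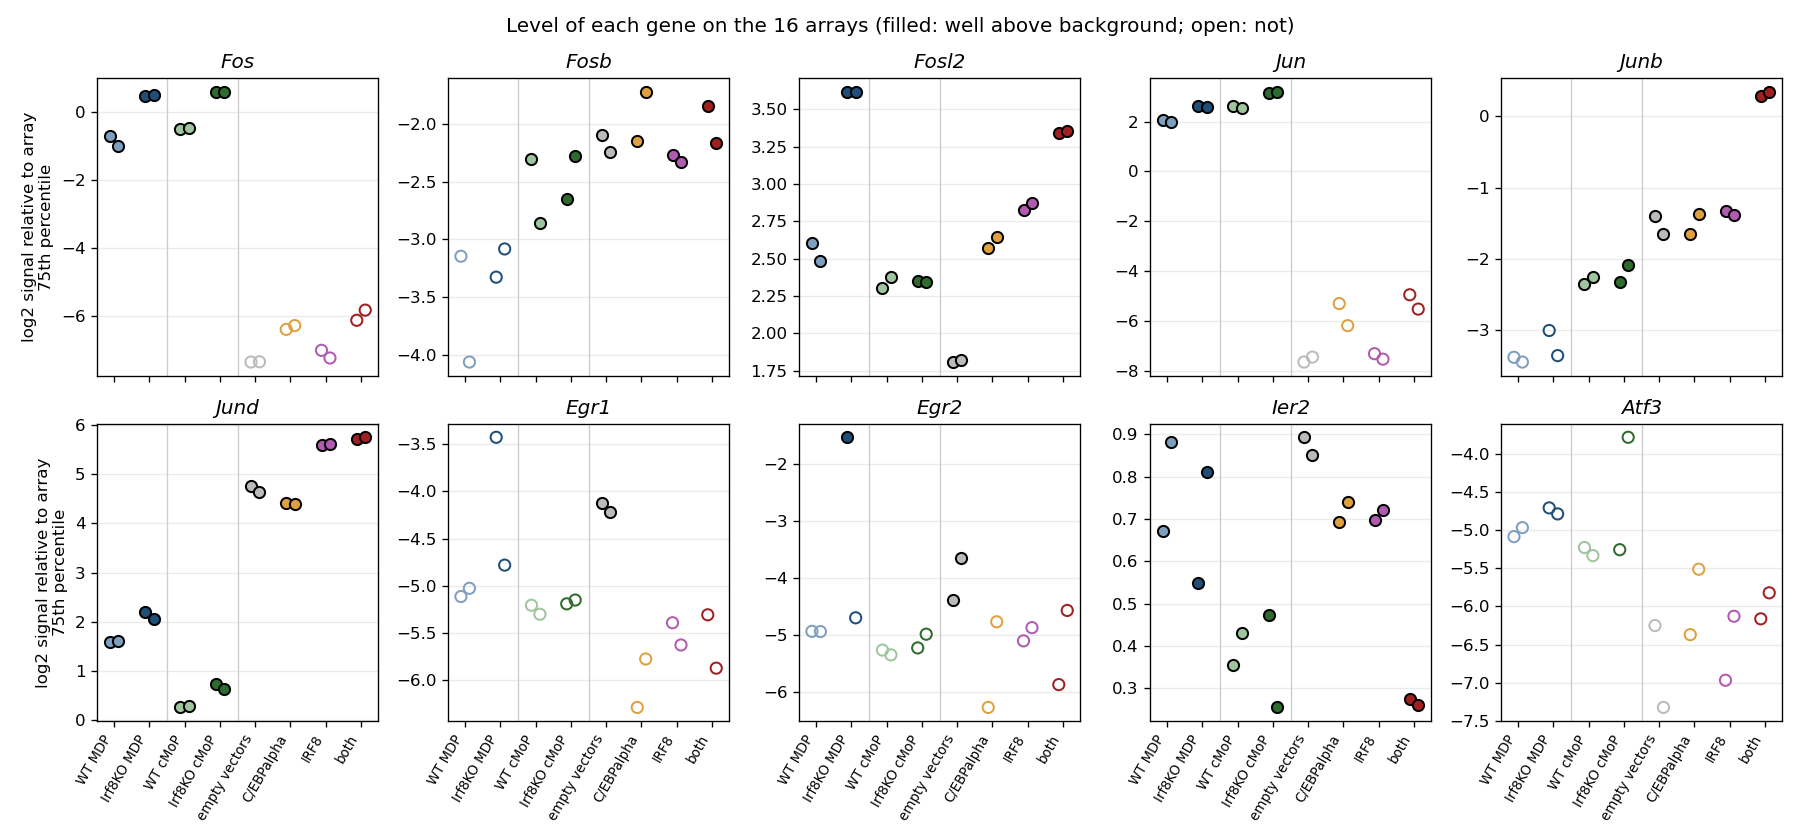
Level of each of the 10 genes (vertical axis, log2 signal relative to the array's 75th percentile) on the 2 arrays of each of the 8 groups (horizontal axis). Filled points are well above background and open points are not. Fos and Jun are filled in all 4 progenitor groups and open in all 4 groups of the 32Dcl.3 line, where the brightest value of either gene, of Jun with both factors, was -4.95.

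The first question was what loss of Irf8 does to these genes in MDPs and in cMoPs. *Fos*, *Jun* and *Jund* were higher in Irf8KO cells at both stages, and *Fosl2* was higher in Irf8KO MDPs with no such change in cMoPs. In MDPs 4 of the 7 tested genes passed the test, all upward, and in cMoPs 3 of 7, all upward. Over all genes 51.6% were called in MDPs and 54.9% in cMoPs, in either direction, 22.8% and 21.3% were called higher, and 28.7% and 33.7% lower. The other tested genes, *Fosb*, *Junb* and *Ier2*, passed in neither stage. In a bulk sample fewer cells of a type and less RNA per cell cannot be told apart.

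*Fos*, the founding Fos subunit, was measured by 10 spots of 1 probe per array, of which 8 to 10 were used on a progenitor array. Its level was -0.725 and -1.002 on the 2 WT MDP arrays and 0.47 and 0.47 on the 2 Irf8KO MDP arrays. In cMoPs it was -0.51 and -0.49 in WT and 0.58 and 0.57 in Irf8KO cells. At both stages each Irf8KO array was above each WT array, and the SD between spots within a progenitor array, 0.047 to 0.124, was small beside that gap. The change was 1.33 ± 0.10 (SE, 2 arrays per group, adjusted p = 2.3e-06) in MDPs, a 2.52-fold rise. It was 1.08 ± 0.10 (adjusted p = 7.5e-06) in cMoPs, a 2.11-fold rise. With background corrected by the normexp model the MDP change was 0.69 and stayed past the threshold. The difference between the 2 stages, -0.26 ± 0.14, missed the threshold (adjusted p = 0.21). It was -0.40 without the first WT MDP array, whose *Fos* level was the higher of the pair. With arrays scaled to their median it passed at -0.46. With normexp it was 0.24, the other direction, and with quantile normalization -0.02, neither past the threshold.

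*Jun* encodes c-Jun, a Jun protein with which Fos proteins can pair to bind DNA. Its level was 2.07 and 2.00 in WT MDPs and 2.62 and 2.59 in Irf8KO MDPs. In cMoPs it was 2.62 and 2.54 in WT and 3.14 and 3.20 in Irf8KO cells. The groups did not overlap at either stage, and the level in WT cMoPs overlapped that in Irf8KO MDPs. The change was 0.57 ± 0.05 in MDPs (adjusted p = 3.8e-06) and 0.59 ± 0.05 in cMoPs (adjusted p = 2.1e-06), about 1.49-fold and 1.5-fold. Scaled to array medians the cMoP change was 0.30 and still passed.

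*Jund* encodes a Jun protein that is present in most resting cells. It stood at 1.59 and 1.62 in WT MDPs and at 2.19 and 2.06 in Irf8KO MDPs. In cMoPs it was lower, at 0.26 and 0.30 in WT and 0.73 and 0.64 in Irf8KO cells. All 4 Irf8KO arrays were above the WT arrays of their slide, with changes of 0.52 ± 0.06 in MDPs (adjusted p = 8.6e-05) and 0.40 ± 0.06 in cMoPs (adjusted p = 0.00037). The cMoP call ended with array median scaling, at 0.11 (adjusted p = 0.32).

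The promoters of these 3 genes are shown because the genes rose at both stages; the test concerns RNA levels and not binding. Each sequence is the 250 bases before the RefSeq start on its own strand (GRCm38.p6), with matches to the searched motifs in capitals. *Fos* lies at chr12:85473640-85473889 on the plus strand, *Jun* at chr4:95052223-95052472 on the minus strand and *Jund* at chr8:70697489-70697738 on the plus strand.
Fos: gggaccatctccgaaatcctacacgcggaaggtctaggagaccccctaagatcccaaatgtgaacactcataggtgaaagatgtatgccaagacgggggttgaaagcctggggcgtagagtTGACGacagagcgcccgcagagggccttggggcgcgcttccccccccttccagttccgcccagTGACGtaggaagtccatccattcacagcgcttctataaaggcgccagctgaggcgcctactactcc
Jun: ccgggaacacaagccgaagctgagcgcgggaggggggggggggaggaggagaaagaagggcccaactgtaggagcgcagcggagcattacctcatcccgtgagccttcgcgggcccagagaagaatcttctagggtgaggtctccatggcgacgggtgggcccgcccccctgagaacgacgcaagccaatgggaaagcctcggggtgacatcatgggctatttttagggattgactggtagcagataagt
Jund: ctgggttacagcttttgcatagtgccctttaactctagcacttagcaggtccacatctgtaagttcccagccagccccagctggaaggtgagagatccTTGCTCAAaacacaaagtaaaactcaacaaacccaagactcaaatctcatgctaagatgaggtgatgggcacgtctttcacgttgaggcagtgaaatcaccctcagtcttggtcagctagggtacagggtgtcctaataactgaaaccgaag
Searched on both strands were the AP-1 element TGANTCA (present in 6.75% of 32851 windows of this length), the CRE element TGACGTCA (1.55%), its core TGACG (17.8%), the ETS element CCGGAAGT (2.88%), the EGR element GCGNGGGCG (4.7%), the C/EBP element TTNNGNAA (36.8%), the CArG box (1.47%) and an IRF repeat (2.98%). A full CRE also counts as a core. In *Fos* the capitals mark 2 cores TGACG, beginning at -129 and -66, and in *Jund* a C/EBP match beginning at -152. In *Jun* none of these letter strings was found in the window. Of the other members with a window, *Fosb* and *Fosl2* held an EGR match each, *Fosb* a CRE core, *Fosl2* an IRF match and *Atf3* a CRE core. *Egr2* has 5 windows, of which 3 overlap. The overlapping ones share a CArG box and 2 CRE cores, and another held a different CArG box and 4 C/EBP matches, some overlapping. Windows were at hand for 8 of the 10 genes, and a match is a description of the letters only.

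*Fosl2* encodes Fra-2, a Fos protein without the long transactivation domain of c-Fos. Its brighter probe read 2.60 and 2.48 in WT MDPs and 3.61 and 3.62 in Irf8KO MDPs, a clear gap. In cMoPs it read 2.30 and 2.38 in WT and 2.35 and 2.34 in Irf8KO cells, and these groups overlapped. The MDP change was 1.07 ± 0.05 (adjusted p = 5.7e-08), a 2.1-fold rise, and the cMoP change 0.01 ± 0.05 (adjusted p = 0.92). The difference between the stages was itself past the threshold, at -1.07 ± 0.07 (adjusted p = 3.5e-06). Among the 7 tested members it was the 1 called there, against 26.1% of all genes. Under array median scaling the cMoP change was -0.28 and passed downward, and the stage difference ranged from -1.26 to -0.87 over the alternative settings. A second, dim *Fosl2* probe was not well above background on any MDP array and was so on 1 of 4 cMoP arrays.

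*Fosb*, a Fos protein, and *Junb*, a Jun protein, were not well above background in MDPs, with changes of 0.40 ± 0.35 and 0.23 ± 0.24. In cMoPs *Fosb* read -2.31 and -2.86 in WT and -2.66 and -2.28 in Irf8KO cells, a full overlap, with a change of 0.11 ± 0.35 (adjusted p = 0.81). *Junb* read -2.35 and -2.26 in WT cMoPs and -2.32 and -2.09 in Irf8KO cMoPs, with a change of 0.10 ± 0.24 (adjusted p = 0.75). *Ier2*, a nuclear immediate early protein, had overlapping groups at both stages. Its levels were 0.67 and 0.88 in WT MDPs, 0.55 and 0.81 in Irf8KO MDPs, 0.36 and 0.43 in WT cMoPs and 0.47 and 0.26 in Irf8KO cMoPs. Its changes were -0.10 ± 0.11 and -0.03 ± 0.11, though array median scaling gave a called -0.32 in cMoPs. *Egr2* stood apart on a single array, with -1.53 on the first Irf8KO MDP array and -4.70, not above background, on the second. *Egr1* was likewise brighter on that first array, at -3.43 against -4.78, without being well above background.

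**Figure D2:**
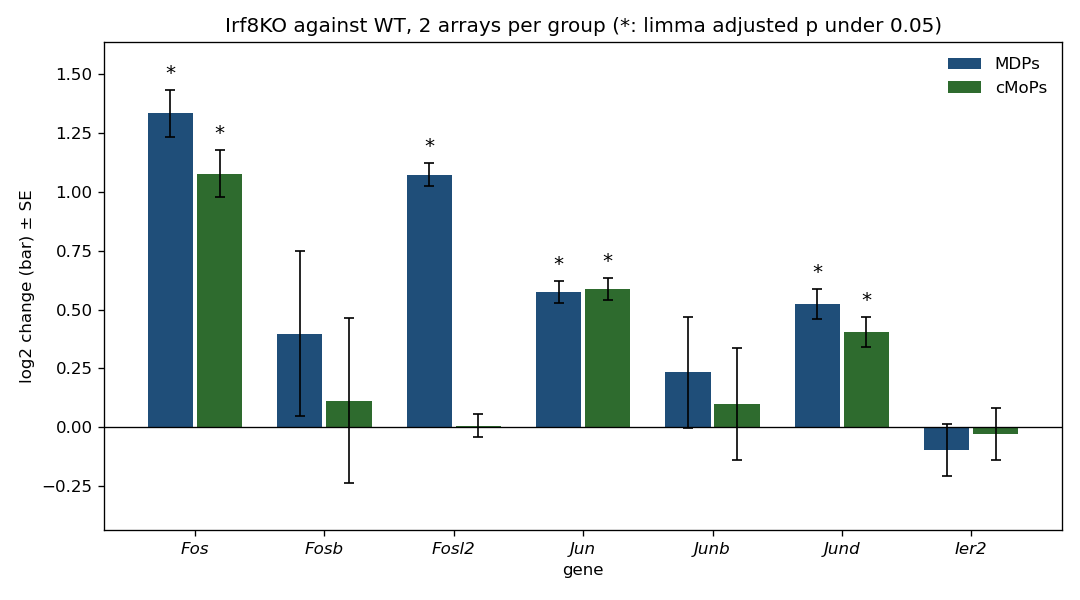
Change of the 7 tested genes in Irf8KO against WT cells (vertical axis, log2, bars with SE, 2 arrays per group) in MDPs and in cMoPs; a star marks an adjusted p under 0.05. Fos, Jun and Jund carry stars at both stages, while Fosl2 reaches 1.07 in MDPs and 0.01 in cMoPs.

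Other genes of the immediate early response were read from a list of 44, of which 31 were tested. In MDPs 21 rose, 1 fell and 9 did not pass, with a median change of 0.49 against -0.02 for all genes. In cMoPs 19 rose, 5 fell and 7 did not pass, with a median of 0.62 against -0.05. *Dusp6*, a phosphatase that dampens ERK signalling, rose by 1.93 ± 0.04 in MDPs. *Sgk1*, a kinase induced by serum and glucocorticoids, rose by 1.84 ± 0.14 in MDPs and 2.43 ± 0.14 in cMoPs. *Id2*, an inhibitor of helix-loop-helix factors, rose by 1.98 ± 0.09 in cMoPs. *Tnfaip3*, which restrains NF-kappaB signalling, went the other way, falling by 1.22 ± 0.13 in MDPs and by 1.25 ± 0.13 in cMoPs. *Nr4a2*, an orphan nuclear receptor, fell by 0.72 ± 0.13 in cMoPs. With array median scaling the counts were 19 up and 1 down in MDPs and 14 up and 7 down in cMoPs. Between the stages 7 of the 31 genes differed upward and 8 downward. The knockout effect was larger in cMoPs by 1.16 ± 0.06 for *Gadd45b*, a stress-response gene, and smaller by 1.58 ± 0.25 for *Klf2*, a Kruppel-like factor.

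Of the other basic leucine zipper genes of the AP-1 and ATF kind 12 were tested. Of these, 5 rose and none fell in MDPs, and 3 rose and 3 fell in cMoPs, with medians of 0.07 and 0.03. *Crem*, a cAMP-responsive factor, was picked after its values were seen. It had a fitted rise of 1.02 in MDPs and a fitted stage difference of -1.57. It was not well above background on all arrays compared, so these sizes are not measured differences. *Jdp2*, a Jun dimerization protein that represses AP-1 targets, rose by 0.28 ± 0.04 in MDPs and by 0.94 ± 0.04 in cMoPs, and the difference of 0.66 ± 0.06 passed (adjusted p = 5.2e-05). The kinases and factors upstream of these genes split evenly in MDPs, with 6 up and 6 down of 22, and in cMoPs 9 rose and 5 fell. *Elk3*, a partner of serum response factor, rose by 0.81 ± 0.05 in MDPs and 0.55 ± 0.05 in cMoPs. *Nab2*, a corepressor of Egr proteins, rose by 0.53 ± 0.08 and 0.94 ± 0.08. *Map2k1*, the kinase MEK1, fell by 0.50 ± 0.06 and 0.41 ± 0.06. Array median scaling moved these upstream counts to 4 up and 7 down in MDPs and to 2 up and 10 down in cMoPs.

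Heat shock genes and markers of other cells moved beside these results, and their part in them was not tested. Of 14 tested heat shock and chaperone genes 2 rose and 3 fell in Irf8KO MDPs, and 3 rose and 7 fell in Irf8KO cMoPs, with *Hspe1*, a mitochondrial chaperonin, down by 0.25 ± 0.06 and 0.63 ± 0.06. The largest fitted changes of that list went up: *Hspb1*, a small heat shock protein, by 4.31 in MDPs and *Hspa1a*, an inducible Hsp70, by 1.02 in cMoPs. These 2 genes were picked after their values were seen. They were not well above background on all arrays compared, so these fitted sizes are not measured differences. The summed level of 8 neutrophil markers, on a linear scale with the 75th percentile as 1, was 6.06 to 7.09 in WT and 74.2 to 76.3 in Irf8KO MDPs. The list did not move together in MDPs, where 2 of 7 tested markers rose, 3 fell and 2 did not pass, with a median of -0.77. On both arrays 5 markers were well above background in WT and 4 in Irf8KO cells. *Ltf* and *Ngp* were well above background on no MDP array and *Camp* on the WT ones only. That count and median thus rest partly on background values. *S100a8* went from 1.24 and 1.03 to 4.90 and 4.94 and *Mmp8* from 0.44 and 0.11 to 5.41 and 5.45, while *S100a9* went from 0.91 and 0.67 to -0.69 and -0.48. All 7 tested neutrophil markers rose in cMoPs, with a median of 2.85. In cMoPs the summed level was 29.4 to 29.6 in WT and 479 to 494 in Irf8KO cells, with 6 and 7 of the 8 markers well above background on both arrays. That of 7 monocyte and macrophage markers was 10.4 in WT and 23.9 to 24.1 in Irf8KO MDPs, and 12.7 to 13.1 and 19.4 to 20.2 in cMoPs. That of 7 erythroid markers fell from between 13.6 and 14.2 to between 0.339 and 0.448 in MDPs, where none of the 7 was above background in Irf8KO cells, and from between 8.03 and 8.36 to between 0.531 and 0.663 in cMoPs. Of 6 tested basophil, mast cell and eosinophil markers all 6 fell in MDPs, with a median of -3.44. The summed level of the 7 with a probe was 13.5 to 13.7 in WT and 2.93 to 3.19 in Irf8KO cells. On both arrays 6 of the 7 were well above background in WT MDPs and 2 in Irf8KO MDPs. *Prg2*, *Prg3*, *Cpa3* and *Fcer1a* passed the filter only through WT cells. A fall was the only direction open to these genes in MDPs, and the median is not a measured size. In cMoPs 2 of the tested markers rose and 3 fell, with sums of 5.34 to 5.47 in WT and 6.34 to 6.94 in Irf8KO cells. There 3 and 2 of the 7 were well above background on both arrays.

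The second question was what C/EBPalpha and IRF8, alone and together, do to these genes in 32Dcl.3 cells. *Fosl2* rose with either factor and most with both, *Jund* rose with IRF8 and fell slightly with C/EBPalpha, and *Junb* passed upward with both factors and with neither factor alone. *Ier2* was lower with both factors, and *Fosb* passed in none of the comparisons. The 3 comparisons with empty vectors share the 2 empty-vector arrays. Against empty vectors 5 of 7 tested members passed with C/EBPalpha, where 78.7% of all genes were called, 4 of 7 with IRF8, where 48.7% were called, and 5 of 7 with both, where 84.8% were called. By direction, with C/EBPalpha 1 member rose and 4 fell, against 33.6 and 45.2% of all genes. With IRF8 2 rose and 2 fell, against 21.5 and 27.2%, and with both 3 rose and 2 fell, against 38.9 and 45.9%. *Egr1* and *Egr2* were tested because empty-vector cells had them well above background, and no other group did, so they could pass the filter only where empty-vector cells were high. Over the other 5 members 1 rose and 2 fell with C/EBPalpha, 2 rose and 1 fell with IRF8, and 3 rose and 1 fell with both. Such shares over all genes leave little to read from the counts of members, so sizes are given instead.

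The values in the line depend on the array scale. The 75th percentile was 534.5 and 516.8 on empty-vector arrays, 246.1 and 241.5 with C/EBPalpha, 428.6 and 434 with IRF8 and 176.3 and 167.6 with both factors. Scaling to the array median in place of the 75th percentile moved the median of all genes to -0.45 with C/EBPalpha, 0.01 with IRF8 and -0.75 with both against empty vectors, to -0.35 for both against C/EBPalpha and to -0.78 for both against IRF8. For the interaction it moved to -0.40, and in the progenitors to -0.12 in MDPs, -0.34 in cMoPs and -0.23 for the stage difference. The main medians lay between -0.10 and -0.02. The share of called genes that were higher went from 44.3 to 28.6% in MDPs and from 38.7 to 13.4% in cMoPs. It went from 40.3 to 11.8% for the stage difference, from 42.6 to 25.2% with C/EBPalpha, from 44.2 to 59.3% with IRF8 and from 45.9 to 22% with both factors. For both against C/EBPalpha, both against IRF8 and the interaction it went from 45.9, 45.9 and 42% to 20.3, 16.1 and 9.3%.

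*Fosl2* was the member raised by each factor. It read 1.81 and 1.82 with empty vectors, 2.57 and 2.65 with C/EBPalpha, 2.83 and 2.87 with IRF8 and 3.34 and 3.36 with both. No 2 of the 4 groups overlapped, and the order was empty vectors, C/EBPalpha, IRF8, both. Against empty vectors the change was 0.80 ± 0.04 with C/EBPalpha (adjusted p = 7.5e-10), 1.03 ± 0.04 with IRF8 (adjusted p = 4.2e-10) and 1.54 ± 0.04 with both (adjusted p = 8.5e-13), the last a 2.9-fold rise. The level with both was above that with C/EBPalpha by 0.74 ± 0.04 (adjusted p = 2.5e-09) and above that with IRF8 by 0.50 ± 0.04 (adjusted p = 5.8e-08). In either of these comparisons, which share the arrays with both factors, 3 members rose and 1 fell of 7. Over all genes 72% were called against C/EBPalpha, 33.1% higher and 38.9% lower, and 82.2% against IRF8, 37.8% higher and 44.5% lower. Averaged with the second, dim probe the changes against empty vectors were 0.44, 0.68 and 1.18, and scaled to array medians they were 0.44, 1.09 and 0.85. On the median scale the level with both was below that with IRF8, at -0.23, and passed the test in that direction. Before scaling, the processed signal of the brighter probe was 1871.6 and 1825.6 with empty vectors and 3036.18 and 3177.22 with IRF8. It was 1463.7 and 1512.53 with C/EBPalpha and 1785.73 and 1718.17 with both factors, below empty vectors. The rises with C/EBPalpha and with both factors thus depend on the scaling.

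*Jund* followed IRF8. It read 4.76 and 4.64 with empty vectors, 4.41 and 4.40 with C/EBPalpha, 5.60 and 5.62 with IRF8 and 5.72 and 5.75 with both. The 4 arrays with IRF8 were above the 4 without it. IRF8 alone raised it by 0.91 ± 0.04 (adjusted p = 1.4e-09), 1.88-fold, and both factors by 1.04 ± 0.04 (adjusted p = 3.6e-11). Scaled to array medians the rise with both factors was 0.35 and still passed. Before scaling, the processed *Jund* signal was 14473.59 and 12881.68 with empty vectors and 20849.47 and 21331.49 with IRF8. With both factors it was 9272.71 and 9029.49, below empty vectors, so the rise with both factors depends on the scaling. The rise of the scaled level on adding IRF8 to C/EBPalpha was 1.33 ± 0.04 (adjusted p = 1.3e-11). With C/EBPalpha alone *Jund* fell by 0.30 ± 0.04 (adjusted p = 1e-05), a change that was -0.01 and not called in the deposited series values. The small step from IRF8 to both factors, 0.12 ± 0.04 (adjusted p = 0.0084), changed direction with array median scaling (-0.61) and with normexp (-0.16), and lost its call without the second array of both factors (adjusted p = 0.06).

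*Junb* encodes a Jun protein that can oppose c-Jun and restrains myeloid growth. It read -1.40 and -1.64 with empty vectors, -1.66 and -1.37 with C/EBPalpha, -1.33 and -1.39 with IRF8, and 0.29 and 0.34 with both. The C/EBPalpha arrays overlapped those with empty vectors and those with IRF8, and the IRF8 arrays lay just above the empty-vector ones. The arrays with both factors lay apart. Against empty vectors the change was 0.01 ± 0.11 with C/EBPalpha (adjusted p = 0.95), 0.16 ± 0.11 with IRF8 (adjusted p = 0.25) and 1.84 ± 0.11 with both (adjusted p = 6.1e-09), a 3.57-fold rise. Adding IRF8 to C/EBPalpha raised it by 1.83 ± 0.11 and adding C/EBPalpha to IRF8 by 1.67 ± 0.11. Before scaling, the processed *Junb* signal was 202.76 and 165.44 with empty vectors, 78.13 and 93.45 with C/EBPalpha, 170.87 and 165.79 with IRF8 and 215.22 and 212.21 with both factors. On that unscaled signal the groups with both factors and with empty vectors lay close, while the array's 75th percentile was lower with both factors. Scaled to array medians the rise with both factors was 1.15 and still passed, and the value with C/EBPalpha alone was a called -0.34.

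Its promoter is shown because, of the 5 members well above background on all arrays of the line, *Junb* had the largest interaction of the factors, described below. The window is chr8:84978749-84978998 on the minus strand of GRCm38.p6, and the capitals mark a CRE core TGACG beginning at -106.
Junb: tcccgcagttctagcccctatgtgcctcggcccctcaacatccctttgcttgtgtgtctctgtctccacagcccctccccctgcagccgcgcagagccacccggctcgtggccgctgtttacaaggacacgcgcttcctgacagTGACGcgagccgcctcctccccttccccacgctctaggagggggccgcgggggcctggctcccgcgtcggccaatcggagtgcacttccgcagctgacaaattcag
No C/EBP or IRF letter string was found in it.

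*Ier2* read 0.89 and 0.85 with empty vectors, 0.69 and 0.74 with C/EBPalpha, 0.70 and 0.72 with IRF8 and 0.28 and 0.26 with both. It was lowest with both factors, and the groups with a single factor overlapped. Both factors lowered it by 0.60 ± 0.05 against empty vectors (adjusted p = 1.2e-07), by 0.45 ± 0.05 against C/EBPalpha and by 0.44 ± 0.05 against IRF8. Scaled to array medians these were -1.28, -0.78 and -1.18, and scaled to the 75th percentile of detected probes the changes against empty vectors and against IRF8 were -0.34 and -0.18, all called. With C/EBPalpha or IRF8 alone it fell by 0.16 ± 0.05 each (adjusted p = 0.011 and 0.015). Either call ended without the first empty-vector array (adjusted p = 0.073 and 0.099) and without the first array of its own factor (0.062 and 0.084). That with C/EBPalpha was 0.00 when scaled to the 75th percentile of detected probes. *Fosb* read -2.10 and -2.24 with empty vectors, -2.15 and -1.73 with C/EBPalpha, -2.27 and -2.34 with IRF8 and -1.85 and -2.17 with both. Its changes were 0.24, -0.13 and 0.16 with an SE of 0.16, none past the threshold, although array median scaling gave a called -0.52 with both factors.

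**Figure D3:**
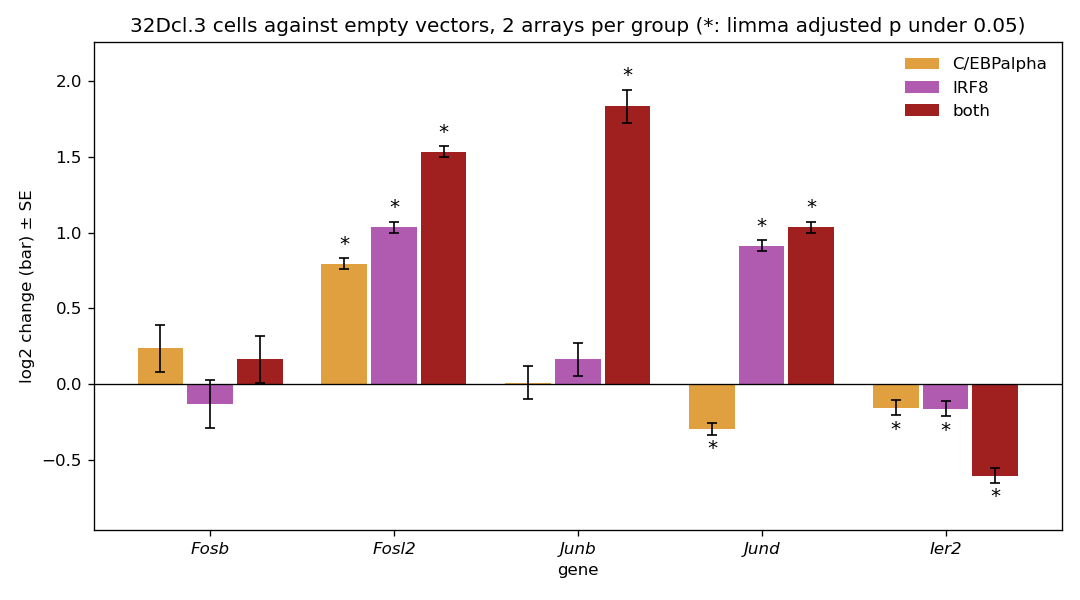
Change of 5 genes in 32Dcl.3 cells against empty vectors (vertical axis, log2, bars with SE, 2 arrays per group) with C/EBPalpha, with IRF8 and with both; a star marks an adjusted p under 0.05. Fosl2 rises in all 3, Jund with IRF8 and with both, and Junb by 1.84 with both.

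*Egr1* and *Egr2* were near the floor in the line. *Egr1* read -4.12 and -4.22 with empty vectors and between -6.29 and -5.31 on the 6 arrays with a factor, where it was not well above background. *Egr2* read -4.39 and -3.65 with empty vectors and between -6.28 and -4.57 on those 6 arrays, also not well above background. The empty-vector levels were also set against the faintest probe well above background on the arrays with a factor. *Egr1* lay above it 1.17-fold for C/EBPalpha and 1.92-fold for IRF8, and not above it for both factors. For *Egr2* these folds were 1.29 for C/EBPalpha, 1.88 for IRF8 and 1.01 for both factors. They are not lower bounds, because a probe brighter than that faintest one can still miss the flag. On the second C/EBPalpha array the faintest lay at -4.351, and the dim *Fosl2* probe at -4.212 was not well above background. The fitted changes below set these levels against values at background, so their sizes are not measured differences. Those of *Egr1* were -1.86 ± 0.42, -1.34 ± 0.42 and -1.42 ± 0.42 (adjusted p = 0.0014, 0.02 and 0.0075). With normexp the values for C/EBPalpha and for both turned to 0.43 and 0.75 and passed upward, and the call for IRF8 ended without any 1 of its 4 arrays (adjusted p from 0.054 to 0.11). The call for both ended without the first empty-vector array (adjusted p = 0.053). The fitted changes of *Egr2* were -1.50, -0.97 and -1.20 ± 0.55 (adjusted p = 0.026, 0.18 and 0.061). Its call for C/EBPalpha ended without the second empty-vector array or the first C/EBPalpha array and turned to 0.50 with normexp. *Fos*, *Jun* and *Atf3* were not well above background on any of the 8 arrays, between -7.35 and -5.83 for *Fos*, and no fold is given for them.

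Whether the 2 factors together did more or less than the sum of their separate changes was tested as an interaction, called for 5 of the 7 members, 3 upward and 2 downward, and for 55.6% of all genes, 23.4% upward and 32.2% downward. Without *Egr1*, whose groups with a factor were all at background, it was called for 4. For *Junb* the separate changes add to 0.17 and the observed change was 1.84, an excess of 1.66 ± 0.15 (adjusted p = 2.2e-06). For *Jund* they add to 0.62 against an observed 1.04, an excess of 0.42 ± 0.05 (adjusted p = 2.7e-05). *Fosl2* fell short of the sum of 1.83, with an observed 1.54 and a difference of -0.29 ± 0.05 (adjusted p = 0.00044). *Ier2* also lay below its sum of -0.32, with an observed -0.60 and a difference of -0.28 ± 0.07 (adjusted p = 0.0039), which was -0.67 on the median scale and -0.19 at the 75th percentile of detected probes, called in either. The *Junb* excess ranged from 1.23 to 1.81 over the alternative settings and passed in all 10. The *Jund* excess ended at 0.04 with array median scaling, and the *Fosl2* difference ended at -0.10 in the deposited values and at 0.05 as the mean of both probes. The interaction of *Egr1*, 1.78 ± 0.59 (adjusted p = 0.024), rests on values not well above background and ended without any 1 of 5 of the 8 arrays.

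**Figure D4:**
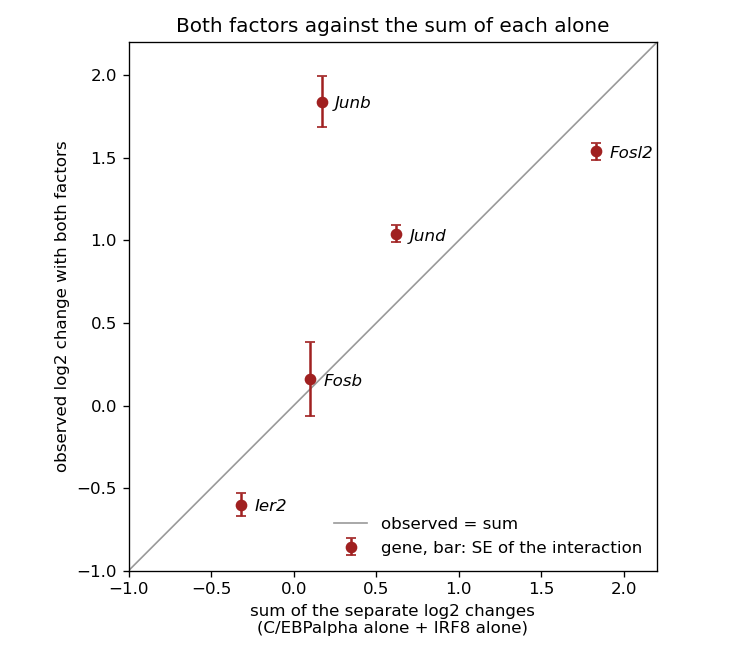
Observed log2 change with both factors (vertical axis) against the sum of the changes with C/EBPalpha alone and IRF8 alone (horizontal axis) for 5 genes in 32Dcl.3 cells; the line marks equality and bars are the SE of the interaction. Junb lies far above the line, Jund above it, and Fosl2 and Ier2 below it.

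Other immediate early genes moved in both directions in the line. Of 36 tested, 19 rose and 13 fell with C/EBPalpha, 14 rose and 12 fell with IRF8, and 24 rose and 10 fell with both, with medians of 0.18, 0.06 and 0.59 against -0.10, -0.04 and -0.07 for all genes. With array median scaling the last count was 14 up and 16 down. With both factors *Klf6*, a Kruppel-like factor, rose by 3.37 ± 0.03 and *Id2* by 3.29 ± 0.03, while *Myc*, the growth regulator, fell by 3.42 ± 0.05 and *Dusp4*, a MAP kinase phosphatase, fell by 2.72 ± 0.07. *Trib1*, a pseudokinase that directs C/EBPalpha to degradation, rose by 5.33 ± 0.08 with C/EBPalpha alone, and adding IRF8 lowered it by 2.38 ± 0.08.

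Among 14 tested basic leucine zipper genes 5 rose and 6 fell with C/EBPalpha, 5 rose and 4 fell with IRF8, and 7 rose and 5 fell with both. *Batf2* and *Atf5*, both of the AP-1 and ATF superfamily, rose by 2.33 ± 0.14 and 2.33 ± 0.03 with both factors. *Jdp2* rose by 1.73 ± 0.04 with C/EBPalpha and was lower by 1.25 ± 0.04 on adding IRF8. *Maff*, a small Maf protein, rose by 1.82 ± 0.07 on adding IRF8 to C/EBPalpha. Of 22 upstream kinases and factors 6 rose and 13 fell with C/EBPalpha, 7 rose and 3 fell with IRF8, and 8 rose and 11 fell with both. *Map3k8*, the kinase Tpl2 of the ERK cascade, rose by 1.30 ± 0.08 with IRF8 and by 2.71 ± 0.08 with both. Of 12 tested heat shock genes 2 rose and 9 fell with C/EBPalpha, 2 rose and 3 fell with IRF8, and 7 rose and 4 fell with both factors. Their interaction was called upward in 10 and downward in 1, with *Hsph1* at 1.94 ± 0.04, and on the median scale upward in 5 and downward in 2. The summed level of 8 neutrophil markers was 54.1 to 55.2 with empty vectors, 2570 to 2600 with C/EBPalpha, 34.6 to 35.2 with IRF8 and 1500 to 1510 with both. The part of either in the changes of the members was not tested.

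Ordered by level over all 8 groups, with cell type and slide not told apart, *Fosl2* was highest in Irf8KO MDPs at 3.62, followed by the line with both factors at 3.35, with IRF8 at 2.85 and with C/EBPalpha at 2.61. The last overlapped WT MDPs at 2.54, Irf8KO and WT cMoPs overlapped at 2.35 and 2.34, and empty-vector cells were lowest at 1.81. *Jund* had no overlapping neighbours, with all 4 groups of the line, from 5.73 to 4.40, above the MDPs at 2.13 and 1.60 and the cMoPs at 0.68 and 0.28. *Junb* was highest with both factors at 0.31. The other groups of the line, from -1.36 to -1.52, lay above the cMoPs at -2.21 and -2.30. Among those groups of the line, the C/EBPalpha group overlapped both the IRF8 group and the empty-vector group. *Fos* was highest in Irf8KO cMoPs at 0.57, then Irf8KO MDPs at 0.47, WT cMoPs at -0.50 and WT MDPs at -0.86, with no overlap. *Ier2* had the flattest order, from 0.87 with empty vectors to 0.27 with both factors, and 6 of its 7 neighbouring pairs overlapped.

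For the 3 members tested in both systems whose group means, centred within their slide, spanned at least 1 on the log2 scale, the most similar genes were sought among 11206. Likeness was the root mean square difference over the 8 centred group means, a description with no test. Nearest to *Junb* were *Zfand2a* at 0.10, *Fgf18* at 0.11 and *Creg1* at 0.13. The MDP means of *Junb*, and of *Fosb* in the differences below, are readings not well above background. *Zfand2a*, a zinc finger gene induced by arsenite, stood at 1.42 with both factors and -0.66 with empty vectors, where *Junb* stood at 1.33 and -0.50. Nearest to *Jund* were *Rnf13* at 0.10, *Il4ra* at 0.11 and *Epsti1* at 0.11. *Il4ra*, a subunit of the interleukin-4 receptor, was like *Jund* higher in Irf8KO than in WT cells at both stages, by centred means of 0.34 and 0.30 above the slide mean. Nearest to *Fosl2* were *Tob1* at 0.14, *1600010M07Rik* at 0.15 and *Pigc* at 0.15. *Tob1*, an antiproliferative gene, stood at 0.41 in Irf8KO MDPs and 0.06 in Irf8KO cMoPs, where *Fosl2* stood at 0.54 and 0.00. Between members tested in both systems the difference ranged from 0.255 for *Fosb* with *Ier2* to 0.71 for *Junb* with *Ier2*, and was 0.345 for *Fosl2* with *Jund*. The neighbours were picked as the closest genes, so their smaller differences follow from that choice.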

How the data were processed

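Single-colour Agilent arrays of 16 samples in 8 groups of 2 were analysed. Per the file headers, the deposited scanner files hold processed intensity values that Feature Extraction 10.7.3.1 had corrected for background within each array, raw median intensity values of spots and local background, and 0/1 flags, listed as other values. The authors' deposited matrix holds further scaled intensity values: the MDP and cMoP columns equal the scanner values times a constant per array, and the 32Dcl.3 columns do not. No source used here names the program for it. The headers name build mm9. Probes were named through their RefSeq accession in a GRCm38.p6 gene table: 26762 of 55681 probes matched 1 symbol, 28919 none and 0 several.

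Outlier spots were left out, spots of a probe were averaged as log2, and the 75th percentile, as log2, over the array's 59305 non-control spots was subtracted. A probe counted as well above background where more than 0.5 of its spots carried that flag. It was kept if a whole group of progenitors or of the line, as fitted, passed, and the brightest probe stood for a gene. Each system was fitted in limma 3.58.1 (R 4.3.3) on 4 group means over 8 arrays, with an intensity trend, 4 residual and 5.89 (progenitors) or 7.42 (line) prior degrees of freedom. P values are two-sided and adjusted by Benjamini-Hochberg over all genes kept, with a threshold of 0.05. The labels number 2 independent experiments but do not say whether animals or cultures were separate, so p-values measure the spread between these arrays, which may be technical. The script was tested on simulated data. The number of arrays limits the precision, and no spot was saturated.

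The replicate numbers did not pair the arrays: deviations of same-numbered arrays correlated between -0.065 and 0.071. The members, the gene lists and the tests were chosen with earlier results of these data known. Of the lists, the members are all named. From each other list at most the 2 largest rises and 2 largest falls were eligible to be named, among called genes well above background on all arrays compared. *Crem*, *Hspb1* and *Hspa1a* were named outside this rule. Marker lists of cell types, the transduced factors and sex-linked transcripts served to check the labels. Alternatives were normexp background correction with an offset of 50, on gMedianSignal in place of the mean signal foreseen, other scalings, the deposited values, filters, the mean of probes, a replicate block, each slide alone, no trend, and leaving out each array. Plots were made in matplotlib 3.10.9.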

Additional observations from a re-analysis of the deposited data

Results flagged for a closer look

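The effect of Irf8 loss differed between the progenitor stages for 1 of the 7 tested members. For *Fosl2* it was smaller in cMoPs than in MDPs, with a difference of -1.065 on the log2 scale (adjusted p = 3.5e-06), and stage and slide cannot be told apart.

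In 32Dcl.3 cells the interaction of the factors was called for 5 of the 7 tested members, against 55.6% of all genes, and for 4 without *Egr1*. The effects of both factors exceeded the sum of each for *Junb* by 1.663 and for *Jund* by 0.419. They fell below it for *Fosl2* at -0.295 and for *Ier2* at -0.284. The *Jund* call ended with array median scaling (0.04), and that of *Fosl2* in the deposited values (-0.10) and as the mean of probes (0.05). For *Egr1* the fitted interaction was 1.78, but the gene was tested only through the empty-vector group, the other groups were at background, and the call ended at 0.39 in the deposited values.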

How the results depend on the processing

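Under alternatives other than leaving out an array, 577 values of members kept a call in its direction or stayed uncalled; 19 became called, 14 lost the call and 16 turned with a call on at least 1 side. Among the 577, 29 uncalled values changed sign without a call.

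With normexp the values that turned were, against empty vectors, *Egr1* (0.43) and *Egr2* (0.50) for C/EBPalpha and *Egr1* (0.75) and *Egr2* (0.86) for both. Against IRF8, those of both factors that turned were *Egr1* (0.90), *Egr2* (0.84) and *Jund* (-0.16), and against C/EBPalpha *Fosb* (0.18). With array median scaling they were *Fosl2* (-0.28) in cMoPs, *Junb* (-0.34) with C/EBPalpha and *Fosb* (-0.52) with both. Against IRF8, both factors gave *Fosb* (-0.44), *Fosl2* (-0.23) and *Jund* (-0.61). The *Fosl2* interaction was 0.053 as the mean of probes, and *Ier2* with C/EBPalpha was 0.004 at the 75th percentile of detected probes. The cause of these changes was not tested.

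The count of members called moved along with that over all genes. With normexp it was 7 for both factors against C/EBPalpha and against IRF8, where 10677 and 12057 of 13337 genes were called. With array medians it was 2 for the stage difference, where 4209 of 11963 genes were called. For the interaction it was 3, where 8491 of 13337 were. With the deposited values it was 3 for C/EBPalpha and 3 for the interaction, where 10193 and 7494 of 13339 genes were called. It was 3 for C/EBPalpha where only genes above background on all arrays were tested, which leaves 5 members. There 9715 of 11566 genes were called. Leaving out an array gave 1 to 2 calls for the stage difference, 2 without the first WT MDP array. For IRF8 it gave 2 to 4, with 2 called without the first empty-vector array or the first IRF8 array.

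The replicate block, whose numbers did not pair the arrays, left 4 members called in MDPs and 3 in cMoPs. Over all genes 6141 and 6552 of 11963 were called there. The block also made *Egr2* called for both factors (-1.20).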
